A study of Mus musculus with 8 samples.

Results

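The genes described here are 45 genes of DNA replication and S phase, chosen by symbol from a list that runs from origin licensing to deoxynucleotide supply, histone deposition and the transcription factors of the G1 to S transition. All 45 had a row among the 23284 gene rows of the count files, and all 45 passed the filter on low counts in the fit of all 8 libraries and in the fit without KO replicate 8. RNA was sequenced from Neurog3-Cre lineage cells that were sorted by flow cytometry from mouse pancreas at embryonic day 17. The 4 KO libraries (replicates 8, 9, 17 and 24) came from Neurod1floxed/floxed; Neurog3Cre+; RosaTomato+ embryos and the 4 Het libraries (replicates 6, 7, 13 and 19) from Neurod1floxed/wt; Neurog3Cre+; RosaTomato+ embryos, both on a background labelled C56BL/J. Both groups therefore carry the Cre transgene, the Tomato reporter and at least 1 floxed Neurod1 allele, so a wild-type reference was not part of the comparison. Neurog3-Cre acts in the precursors of the pancreatic endocrine cells, so in the pancreas the floxed alleles are removed in that lineage. Whether the libraries of a group are separate embryos is not stated in the labels, and the p-values below rest on library-to-library spread alone, which may be technical.

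DNA replication begins when the MCM2-7 helicase is loaded onto origins during G1, with the help of the origin recognition complex, Cdc6 and Cdt1, and is switched on at the start of S phase by kinases and by factors that join the helicase. Polymerases, the sliding clamp PCNA and a set of processing enzymes then copy both strands, while ribonucleotide reductase and related enzymes supply the deoxynucleotides. Transcripts of many of these genes rise at the G1 to S transition under the control of E2F transcription factors, so that in a mixed population their level follows the share of cycling cells. In the embryonic pancreas, cells that have switched on Neurog3 largely leave the cell cycle, and endocrine cells resume division later.

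Library totals ran from 10.35 M to 16.08 M counts over 15443 to 16538 detected genes. Neurod1 itself checked the labels: it stood at 2.55, 12.9, 22.2 and 21.5 CPM (counts relative to library sizes scaled by edgeR's TMM factors) in KO replicates 8, 9, 17 and 24, and at 133 to 210.5 CPM in the 4 Het libraries (log2 fold change −3.40, edgeR adjusted p = 0.0165). KO replicate 8 stood apart. All 11 mesenchyme markers were at their highest of the 8 libraries there, with a summed level of 10100 CPM against 500.3 to 633.1 CPM in the other KO libraries and 509.3 to 1370 CPM in Het (Col3a1 3276 CPM and Col1a2 2552 CPM in that library). The 8 endocrine genes, led by Chgb and Scg2, summed to 3722 CPM in KO replicate 8, 5395 to 7633 CPM in the other KO libraries and 7715 to 8977 CPM in Het, and all 8 were lowest in KO replicate 8. These 8 include Neurod1, the floxed gene, which was at 22.2 CPM in KO replicate 17 and 141.4 CPM in Het replicate 13. Those libraries had the nearest sums of the 2 genotypes (7633 and 7715 CPM), and leaving Neurod1 out reverses their order. The 6 leukocyte markers, led by Lyz2 and Csf1r, summed to 371.7 CPM in KO replicate 8, 190.7 CPM in KO replicate 9 and 14.93 to 58.36 CPM elsewhere. Summed levels of the 10 acinar markers (13170 to 45800 CPM in KO, 10120 to 31470 CPM in Het, led by Ctrb1 and Cpa1) were highest in KO replicate 9. Duct markers (858.3 to 1077 CPM in KO, 712.5 to 966.9 CPM in Het), endocrine precursor genes (155.3 to 567.6 against 283.9 to 384 CPM), endothelial markers (6.636 to 25.57 against 2.472 to 10.76 CPM), Schwann-cell and neural-crest markers (4.226 to 17.8 against 9.125 to 36.69 CPM) and erythroid markers (7.098 to 10.53 against 6.411 to 15.31 CPM) overlapped between genotypes in their sums, with Hbb-b1 and Hba-a1 at 0 in all 8 libraries. For the duct markers this overlap came from KO replicate 8 alone. KO replicates 9, 17 and 24 summed to 1024, 1077 and 1006 CPM, above every Het library. Endocrine precursor sums in those KO libraries (374.1 to 567.6 CPM) still overlapped with Het. Single markers did differ: the duct gene Cftr (14.5 to 33.96 CPM in KO, 2.55 to 8.53 CPM in Het, edgeR adjusted p = 0.0426) and the endothelial gene Cldn5 (2.62 to 3.75 against 0.0772 to 0.371 CPM, adjusted p = 0.0311) were higher in KO. The precursor gene Sox4 was called higher without KO replicate 8 (48.5 to 52.8 against 21.4 to 29.7 CPM, adjusted p = 0.0183). Their part in the results on replication genes was not tested, other than by the fit without KO replicate 8 and by a covariate for the mesenchyme markers.

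With all 8 libraries, 38 of the 45 replication genes had a negative log2 fold change of KO over Het, where 46.6% of all 14116 genes tested did. None of the 45 passed edgeR's quasi-likelihood test at an adjusted p under 0.05, in either direction, where 0.68% of all genes were called lower and 0.34% higher. The smallest adjusted p was 0.104, for Dut. At an unadjusted p under 0.05 there were 10 genes lower (Gmnn, Mcm2, Mcm5, Gins2, Prim1, Rfc4, Fen1, Rrm2, Dut and E2f8) and none higher, against 5.8% and 6.35% of all genes. DESeq2 called 3 lower (Dut, E2f8 and Fen1), and limma-voom with sample quality weights called 6 lower (these 3 with Gins2, Mcm3 and Rrm2). Over all genes those tools called 2.08% and 2.15% lower. With the mean level of the mesenchyme markers as a covariate, edgeR called 8 lower (Dut, E2f8, Gins2, Mcm2, Mcm3, Mcm5, Rrm2 and Tyms), and 2.27% of all genes. In the authors' deposited table none of the 45 had an adjusted p under 0.05, where 0.698% of its genes did in the lower direction and 0.283% in the higher, and the smallest adjusted p was again that of Dut (0.10).

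Without KO replicate 8, 3 of the 45 genes fell by edgeR's test, and for 19 the 3 remaining KO libraries were all below every Het library, where this held for 7.56% of all genes tested. These were Rrm2, the small subunit of ribonucleotide reductase, Mcm3, a subunit of the replicative helicase, and Dut, which removes dUTP from the nucleotide pool. Of the 45 genes, 44 had a negative log2 fold change (50.6% of 14307 genes tested), with Pola1 as the exception at 0.02. The 3 calls stood beside 1.31% of all genes called lower and 0.678% called higher. Another 21 genes had an unadjusted p under 0.05, so that 24 were lower and none higher at that level, against 8.21% and 6.03% of all genes. The median log2 fold change of the 45 genes went from −0.38 with all libraries to −0.74 without KO replicate 8, beside medians over all genes tested of 0.033 and −0.005. DESeq2 and limma-voom with quality weights each called 16 of the 45 lower without KO replicate 8. Over all genes they called 3.16% and 2.94% lower. In bulk RNA, fewer cycling cells, less of these transcripts per cycling cell and a different mix of sorted cells cannot be told apart.

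**Figure D1:**
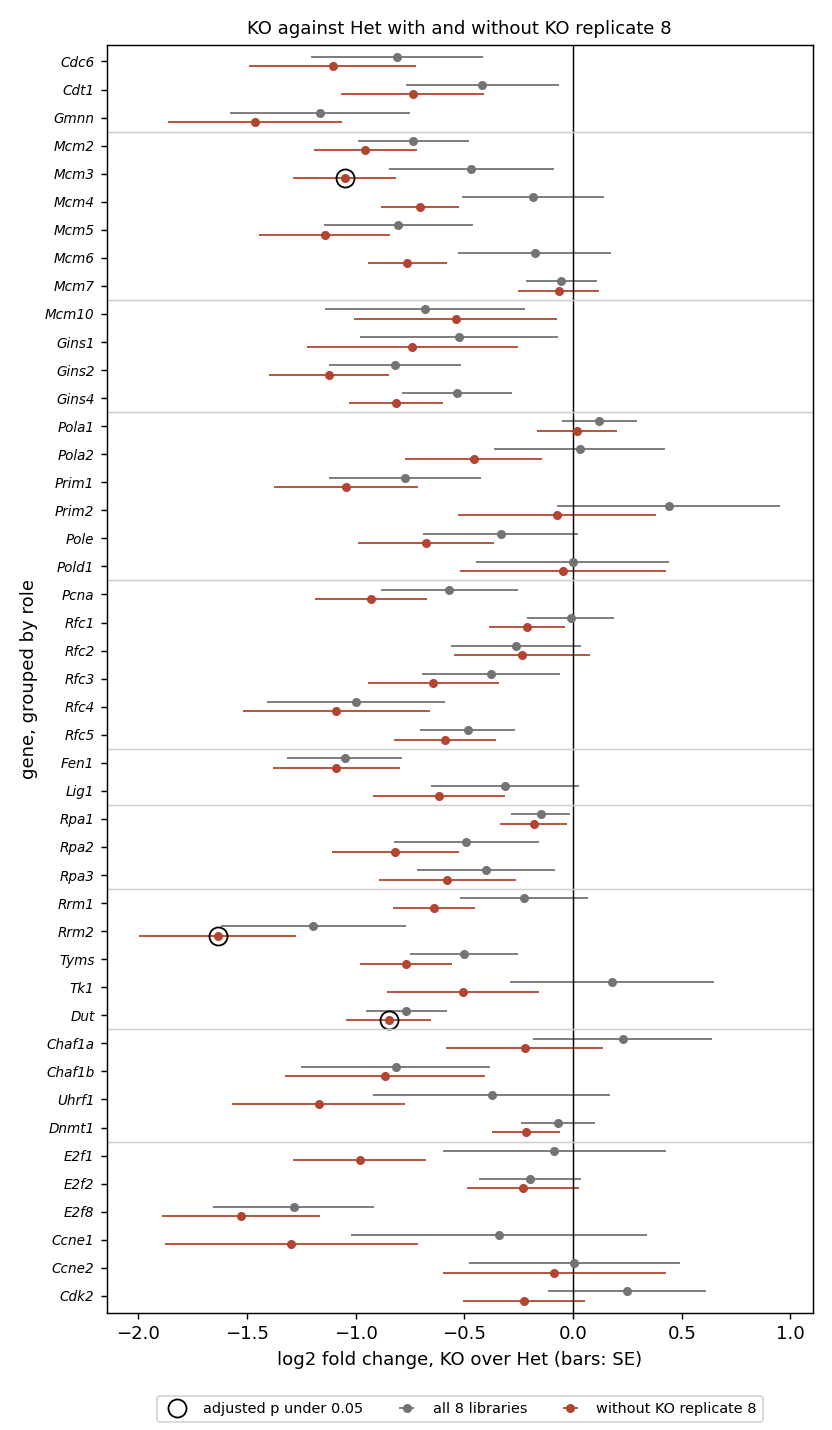
Log2 fold change of KO over Het from edgeR for the 45 genes, grouped by role, with all 8 libraries (grey) and without KO replicate 8 (red). Bars are standard errors calculated back from the F statistic, and open circles mark an adjusted p under 0.05. Circles stand at Mcm3, Rrm2 and Dut in the fit without KO replicate 8, and Mcm7, Pola1, Pold1 and Ccne2 lie near 0 in both fits.

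The promoters of the 3 called genes and of Mcm7, a helicase subunit that did not move with its partners, are shown because E2F factors are the textbook regulators of the group. Regulation by E2F was not tested. The sequences are RefSeq promoters on build GRCm38.p6, each reaching from 250 bases before to 50 bases after the annotated start and printed 5′ to 3′ on the strand of the gene. The counts were made on another build, mm9, and were matched by symbol only. Mcm3 lies at chr1:20820263-20820562 (minus strand), Mcm7 at chr5:138171834-138172133 (minus strand, the upstream of its 2 listed starts), Rrm2 at chr12:24708004-24708303 (plus strand) and Dut at chr2:125247265-125247564 (plus strand). Capitals mark exact matches, on either strand, to the 8-base E2F-type forms TTTCCCGC, TTTCGCGC, TTTGCCGC and TTTGGCGC or to the 7-base forms that lack their first T, which overlap the 8-base forms and one another.
Mcm3: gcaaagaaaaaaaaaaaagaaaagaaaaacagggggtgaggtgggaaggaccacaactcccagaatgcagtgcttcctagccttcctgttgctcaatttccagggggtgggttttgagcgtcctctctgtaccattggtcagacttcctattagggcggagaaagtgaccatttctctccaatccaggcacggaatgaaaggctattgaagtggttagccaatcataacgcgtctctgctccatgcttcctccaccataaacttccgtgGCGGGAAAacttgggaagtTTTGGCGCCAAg
Mcm7: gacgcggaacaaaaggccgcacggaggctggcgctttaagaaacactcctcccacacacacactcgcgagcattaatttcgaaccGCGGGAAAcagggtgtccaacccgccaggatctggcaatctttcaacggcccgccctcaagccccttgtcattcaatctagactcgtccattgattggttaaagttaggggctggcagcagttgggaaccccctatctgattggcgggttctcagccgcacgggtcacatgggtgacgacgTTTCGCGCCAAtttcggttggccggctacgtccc
Rrm2: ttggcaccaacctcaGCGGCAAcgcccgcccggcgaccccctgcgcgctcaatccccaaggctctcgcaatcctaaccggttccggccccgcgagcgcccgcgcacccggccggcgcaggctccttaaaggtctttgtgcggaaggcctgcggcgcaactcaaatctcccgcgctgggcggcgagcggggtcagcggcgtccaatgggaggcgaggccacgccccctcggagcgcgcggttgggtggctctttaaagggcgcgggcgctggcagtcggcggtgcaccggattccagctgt
Dut: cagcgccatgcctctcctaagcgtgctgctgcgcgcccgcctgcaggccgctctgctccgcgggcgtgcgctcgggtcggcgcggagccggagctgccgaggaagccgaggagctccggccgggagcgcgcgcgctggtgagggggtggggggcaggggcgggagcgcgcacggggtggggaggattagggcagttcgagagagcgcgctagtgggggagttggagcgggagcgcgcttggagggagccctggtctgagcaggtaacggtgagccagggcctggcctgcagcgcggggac
Counting from 1 at the first base of the gene, the Mcm3 promoter holds TTTCCCGC on the opposite strand at 20 to 27 and TTTGGCGC on the gene's strand at 39 to 46. The Mcm7 promoter holds TTTCCCGC on the opposite strand at −165 to −158 and TTTCGCGC on the gene's strand at 17 to 24. Rrm2 has a single 7-base form (TTGCCGC, opposite strand, −235 to −229), and in the Dut window none of these letters was found. A match describes letters and not a bound site.

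Of the 45 genes, 36 had at least 1 entry in the RefSeq promoter table, and 14 of these 36 (38.9%) held an 8-base form: Cdc6, Cdk2, Cdt1, Dnmt1, E2f2, Lig1, Mcm3, Mcm5, Mcm6, Mcm7, Pola1, Pold1, Rfc3 and Uhrf1. The same forms were found for 4.48% of the 9997 tested genes with a promoter entry and for 2.6% of all 27025 genes in the table. With the 7-base forms the shares were 69.4% of the replication genes, 19.3% of tested genes and 10.9% of all genes. Among 48 further replication genes with an entry the shares were 33.3% and 52.1%. Of the 14 genes with an 8-base form, 13 had a negative log2 fold change without KO replicate 8 and 1, Mcm3, was called, with a median of −0.63 and a range from −1.17 (Uhrf1) to 0.02 (Pola1). The 22 genes with an entry and no 8-base form were all negative, 2 of them called, with a median of −0.83. The difference between these sets was not tested. The genes with an entry had 44 promoter windows, of which 36 had their last 30 bases in a transcript of the same gene. Sequence outside these windows was not scanned, so a missing form describes the listed window alone.

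The 3 origin licensing genes had the lowest median log2 fold change of the 10 roles, −0.81 with all libraries and −1.11 without KO replicate 8. Gmnn encodes geminin, which holds back relicensing in S and G2 phase. It stood at 11.4, 7.26, 5.58 and 5.30 CPM in KO replicates 8, 9, 17 and 24 and at 26.6, 11.8, 19.4 and 8.52 CPM in Het replicates 6, 7, 13 and 19. KO replicate 8 lay among the Het values and the other 3 KO libraries below all of them (log2 fold change −1.46, SE 0.40, edgeR adjusted p = 0.0979 without KO replicate 8). Cdt1, which brings the helicase to origins, was higher in KO replicate 8 (15.3 CPM) than in any Het library (10.5 to 15.2 CPM), and lower than all of them in the other 3 KO libraries (5.11 to 9.95 CPM). Cdc6, the ATPase that loads the helicase together with Cdt1, overlapped between genotypes even without KO replicate 8 (3.69 to 9.01 against 8.31 to 17.1 CPM).

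Of the 6 MCM2-7 subunits, 5 were below every Het library in KO replicates 9, 17 and 24, and Mcm7 was not. Over all genes tested without KO replicate 8, this separation held for 7.56%. Mcm3 stood at 48.5, 18.98, 12.8 and 17.7 CPM in KO replicates 8, 9, 17 and 24 and at 38.6, 31.8, 39.6 and 25.6 CPM in Het replicates 6, 7, 13 and 19. KO replicate 8 was thus the highest of all 8 libraries and the other 3 KO libraries were the lowest (log2 fold change −1.05, SE 0.24, edgeR adjusted p = 0.0437 without KO replicate 8, and −0.47, SE 0.38, adjusted p = 0.661 with it). Mcm6 had the same order, at 90.3, 31.0, 32.5 and 28.2 CPM in KO and 50.8, 55.9, 56.4 and 42.9 CPM in Het, with a log2 fold change of −0.76 (SE 0.18) without KO replicate 8 and −0.18 (SE 0.35) with it. Mcm4 was likewise highest in KO replicate 8 (92.7 CPM against 50.9 to 66.1 CPM in Het) and lowest in the other 3 (32.4 to 38.5 CPM). Mcm2 and Mcm5, in contrast, had KO replicate 8 inside the Het range, and with log2 fold changes of −0.73 and −0.80 they were the pair of this complex at an unadjusted p under 0.05 with all 8 libraries. Mcm7 stood at 33.1, 35.2, 30.8 and 32.4 CPM in KO and at 33.5, 29.6, 39.9 and 33.4 CPM in Het. Its 2 groups overlapped throughout, with a mean of 32.9 ± 1.82 CPM against 34.1 ± 4.28 CPM (SD, n = 4) and log2 fold changes of −0.05 (SE 0.16) and −0.07 (SE 0.19).

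**Figure D2:**
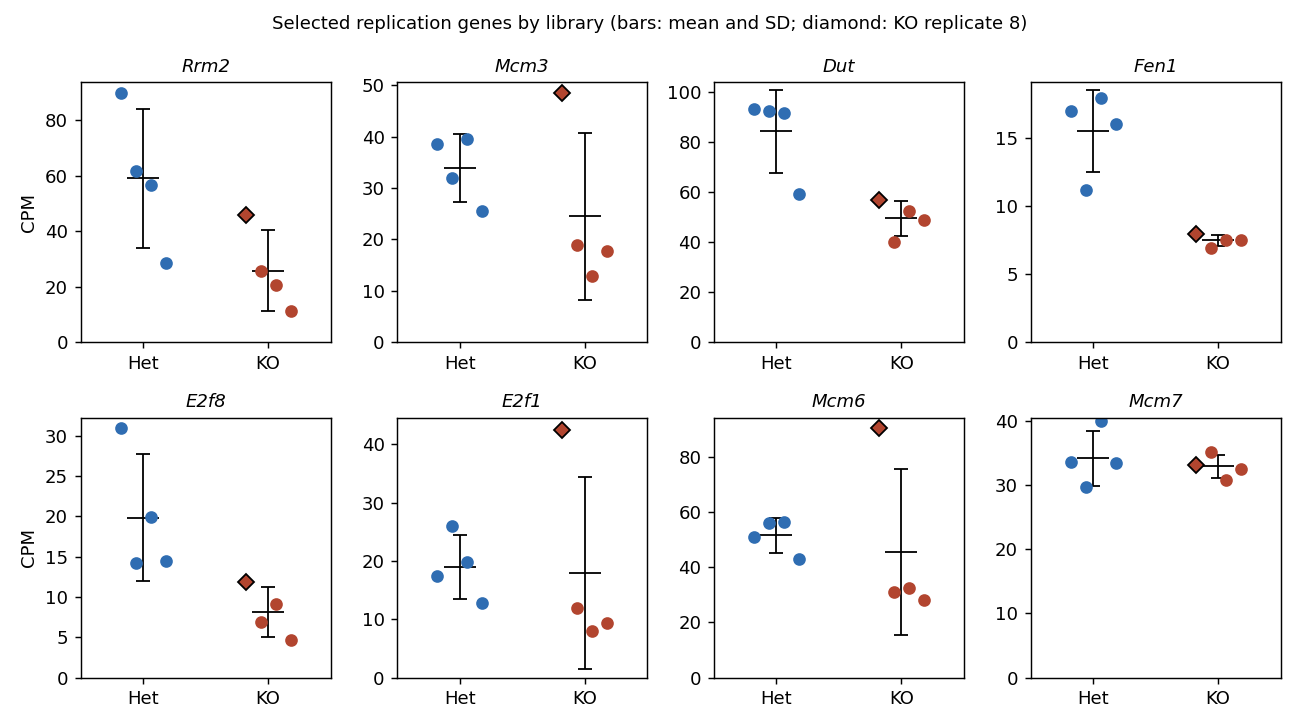
CPM of 8 replication genes in the 4 Het (blue) and 4 KO (red) libraries, with the mean and SD of each group; the diamond is KO replicate 8. The diamond lies above every Het library for Mcm3, Mcm6 and E2f1, within the Het range for Rrm2 and Mcm7, and below every Het library for Dut, Fen1 and E2f8.

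The helicase is activated by the GINS complex, of which 3 subunits were in the list, and by Mcm10. Gins2 stood at 16.8, 10.6, 7.09 and 8.89 CPM in KO and at 23.9, 17.1, 17.8 and 17.8 CPM in Het. It was 1 of 4 genes, with Dut, Fen1 and E2f8, for which all 4 KO libraries lay below all 4 Het libraries, where 4.48% of all genes tested did so. None of the 45 had all KO libraries above all Het libraries, where 3.55% of all genes did, or 6.91% with KO replicate 8 left out. The log2 fold change of Gins2 was −0.82 (SE 0.30, edgeR adjusted p = 0.311; without KO replicate 8, −1.12, SE 0.27, adjusted p = 0.0606). Gins4 was separated only without KO replicate 8 (17.4 to 21.0 CPM against 26.1 to 39.9 CPM in Het). Gins1 (3.15 to 6.85 against 3.04 to 10.6 CPM) and Mcm10 (3.13 to 8.22 against 4.26 to 10.3 CPM) overlapped, and were among the genes with the fewest counts.

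The DNA polymerase and primase genes had the median log2 fold change nearest to 0 of the 10 roles. It was 0.015 with all libraries, with 3 of 6 negative, and −0.27 without KO replicate 8. Prim1, the catalytic subunit of primase, was the exception, at 21.9, 14.36, 11.99 and 10.3 CPM in KO and 40.5, 14.40, 23.7 and 21.6 CPM in Het. KO replicate 9 was barely below Het replicate 7, KO replicates 17 and 24 were lower, and KO replicate 8 lay within the Het range (without KO replicate 8, log2 fold change −1.04, SE 0.33, adjusted p = 0.15). Pola1, the catalytic subunit of polymerase alpha, ran from 39.4 to 56.5 CPM in KO and from 39.5 to 52.6 CPM in Het. Pola2, its accessory subunit (8.14 to 28.8 against 13.04 to 18.2 CPM), Prim2, the large primase subunit (7.34 to 25.8 against 3.32 to 16.5 CPM), and Pole, the catalytic subunit of the leading-strand polymerase (8.97 to 29.4 against 19.5 to 28.2 CPM), each had KO replicate 8 as their highest library. Pold1, the catalytic subunit of polymerase delta, ran from 5.34 to 8.37 CPM in KO and from 3.03 to 12.2 CPM in Het.

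Pcna, the sliding clamp that tethers polymerases to DNA, was at 37.7, 14.3, 21.6 and 18.1 CPM in KO and at 31.8, 47.2, 31.7 and 25.4 CPM in Het. KO replicate 8 lay within the Het range and the other 3 below it (log2 fold change −0.93, SE 0.26, edgeR adjusted p = 0.102 without KO replicate 8). Of the 5 clamp loader subunits, Rfc5 was separated in the same way (13.7 to 18.8 CPM in KO replicates 9, 17 and 24, 21.6 to 29.9 CPM in Het). Rfc4 had the lowest log2 fold change of the loader (−0.9998, SE 0.41, adjusted p = 0.36), with KO at 5.42 to 9.28 CPM and Het spread from 7.86 to 25.3 CPM. Rfc2 (14.1 to 32.0 against 19.9 to 40.2 CPM) and Rfc3 (9.97 to 21.2 against 12.9 to 24.9 CPM) overlapped. So did Rfc1, the large subunit, whose log2 fold change was −0.01 with all libraries and −0.21 without KO replicate 8.

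Fen1, the nuclease that trims Okazaki fragments, stood at 7.94, 6.94, 7.54 and 7.55 CPM in KO and at 16.99, 11.2, 17.9 and 16.0 CPM in Het. The KO libraries lay close together and below all Het libraries, KO replicate 8 included, and the log2 fold change was much the same with and without that library (−1.05, SE 0.27, and −1.09, SE 0.29; edgeR adjusted p = 0.117 and 0.0924). Lig1, the ligase that joins the fragments, overlapped (23.3 to 57.3 against 25.0 to 64.5 CPM). The 3 subunits of RPA, which coats single-stranded DNA, also overlapped between genotypes. Rpa1, the large subunit, was the steadiest of them, at 57.9 to 66.5 CPM in KO and 62.7 to 77.2 CPM in Het, Rpa3, the smallest, ran from 14.6 to 28.9 CPM and from 19.8 to 43.0 CPM, and for Rpa2 the log2 fold change without KO replicate 8 was −0.82 (SE 0.29, adjusted p = 0.206).

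Among the 5 genes of deoxynucleotide supply, 4 were below every Het library in KO replicates 9, 17 and 24, and 2 of the 3 calls were here. Over all genes tested without KO replicate 8, 7.56% were separated in that way and 1.31% were called lower. Rrm2, whose transcript and protein peak in S phase, stood at 45.8, 25.6, 20.6 and 11.4 CPM in KO replicates 8, 9, 17 and 24 and at 89.8, 61.6, 56.5 and 28.7 CPM in Het replicates 6, 7, 13 and 19. KO replicates 9, 17 and 24 lay below Het replicate 19, the lowest Het library, and KO replicate 8 lay above it. The fitted Het level was 3.10 times that of those 3 KO libraries (log2 fold change −1.63, SE 0.36, edgeR adjusted p = 0.0389), and 2.29 times that of all 4 (−1.19, SE 0.42, adjusted p = 0.286). Rrm1, the large subunit, was at 112 CPM in KO replicate 8, above every Het library (55.3 to 90.4 CPM), and at 43.5 to 53.9 CPM in the other KO libraries, below them.

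Dut stood at 56.7, 40.2, 52.5 and 48.7 CPM in KO and at 93.2, 92.6, 91.8 and 59.4 CPM in Het. All 4 KO libraries lay below all Het libraries, of which 3 lay close together and Het replicate 19 was far lower. Its log2 fold change was −0.77 (SE 0.19, edgeR adjusted p = 0.104) with all libraries and −0.85 (SE 0.20, adjusted p = 0.0485) without KO replicate 8. Tyms, which makes thymidylate, was separated without KO replicate 8 (28.0 to 34.6 against 39.0 to 65.0 CPM), and its fitted log2 difference was −0.77 (SE 0.21, adjusted p = 0.0979). Tk1, the salvage enzyme thymidine kinase, was far higher in KO replicate 8 (25.0 CPM) than in the other KO libraries (6.41 to 8.62 CPM), which overlapped with Het (8.10 to 15.4 CPM).

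The calls of Rrm2, Mcm3 and Dut without KO replicate 8 were close to the threshold. They were lost when any further library other than Het replicate 19 was left out (adjusted p from 0.0586 to 0.218, with 0.392% to 1.21% of all genes called lower). Without Het replicate 19 they were among 11 of the 45 that were called lower, where 2% of all genes were. The summed level of the Y-linked genes was 413.6 to 496.7 CPM in KO replicates 8, 9 and 24 and Het replicate 7 and at most 0.4416 CPM in the other 4 libraries. With these genes as a covariate, none of the 45 was called (adjusted p from 0.0957 to 0.112 for Rrm2, Mcm3 and Dut, 24 genes lower and none higher at an unadjusted p under 0.05), where 0.664% of all genes were called lower. The median log2 fold change of the 45 genes was −0.77 with that covariate. Scaling by total counts alone, or a covariate for the mesenchyme markers, kept the call of Rrm2 and lost those of Mcm3 and Dut, with 1.06% and 1.38% of all genes called lower. Het replicate 19 was the lowest Het library for 24 of the 45 genes and the highest for none.

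The genes of histone deposition and maintenance of DNA methylation overlapped between genotypes in both fits. Uhrf1, which recruits Dnmt1 to newly copied DNA, stood at 43.9, 20.1, 7.92 and 6.02 CPM in KO and at 31.1, 26.2, 28.2 and 15.6 CPM in Het. The KO libraries spread over a wider range than the Het libraries, and with KO replicate 8 left out the log2 fold change was −1.17 (SE 0.40, edgeR adjusted p = 0.182). Chaf1a and Chaf1b, subunits of the chromatin assembly factor that places histones behind the fork, had log2 fold changes of −0.22 and −0.86 without KO replicate 8. Dnmt1, the maintenance methyltransferase, ran from 62.7 to 103 CPM in KO and from 79.9 to 95.0 CPM in Het.

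Of the E2F factors, E2f8, a repressor that is itself an E2F target, was low in all 4 KO libraries, and E2f1, an activator, in 3 of them. E2f8 stood at 11.8, 6.94, 9.12 and 4.67 CPM in KO and at 30.9, 14.2, 19.9 and 14.4 CPM in Het (log2 fold change −1.28, SE 0.37, edgeR adjusted p = 0.172; without KO replicate 8, −1.53, SE 0.36, adjusted p = 0.0558). E2f1 stood at 42.5, 11.9, 7.92 and 9.34 CPM in KO and at 17.4, 26.0, 19.9 and 12.8 CPM in Het. For E2f1, KO replicate 8 was the highest library and the other 3 KO libraries the lowest, so that the log2 fold change went from −0.09 (SE 0.51) to −0.98 (SE 0.31, adjusted p = 0.14) without it. E2f2, another activator, overlapped (16.7 to 19.6 against 14.1 to 27.1 CPM). Ccne1 and Ccne2, the E cyclins that drive entry into S phase, and Cdk2, their kinase, overlapped as well, and the log2 fold change of Ccne1 went from −0.34 (SE 0.68) to −1.30 (SE 0.58, adjusted p = 0.335) without KO replicate 8.

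**Figure D3:**
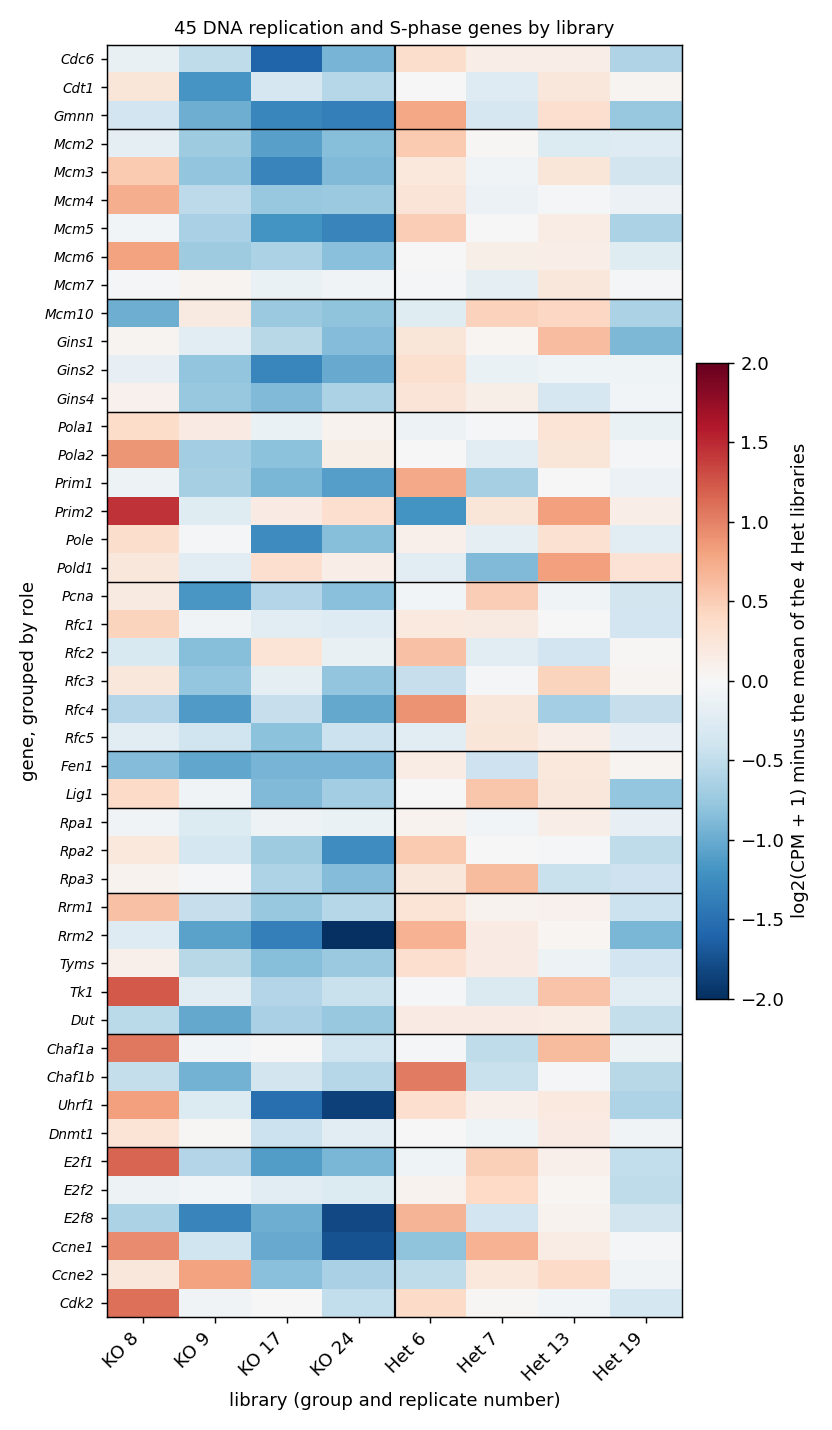
Level of each of the 45 genes in each library as log2(CPM + 1) minus the mean of the 4 Het libraries, with genes grouped by role and colours limited to 2 units either way. KO replicates 9, 17 and 24 are mostly blue (lower), KO replicate 8 is red for 17 genes that lie above every Het library, and Het replicate 19 is the bluest Het column.

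KO replicate 8 lay above every Het library for 17 of the 45 genes, within the Het range for 23 and below every Het library for 5 (Mcm10, Gins2, Fen1, Dut and E2f8). Over all genes tested the shares were 29.1%, 44.1% and 26.8%. It was the highest of all 8 libraries for 17 of the 45 genes, where this held for 22.7% of all genes. Of the 19 genes whose levels in the other 3 KO libraries were below every Het library, KO replicate 8 was above the Het range for 6 (Cdt1, Mcm3, Mcm4, Mcm6, Rrm1 and E2f1), within it for 9 and below it for 4. Among the other 7 libraries, the lowest level of all 8 was in KO replicate 17 for 17 genes, in KO replicate 24 for 12 and in KO replicate 9 for 8. Across the 8 libraries the median correlation of log2 CPM between 2 of the 45 genes was 0.544 over 990 pairs, as a description, since the pairs share libraries and genotype.

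The summed level of the 45 genes was 1604, 981.1, 859.9 and 851.8 CPM in KO replicates 8, 9, 17 and 24 and 1573, 1402, 1433 and 1078 CPM in Het replicates 6, 7, 13 and 19. The 3 KO libraries other than replicate 8 were below all Het libraries, with the smallest gap to Het replicate 19. The ribosomal RNA gene Rn45s took 1.06%, 3.72%, 5.47% and 5.02% of the counts in those KO libraries and 0.902%, 1.84%, 2.80% and 5.54% in the Het libraries, so that in both groups the library with the smallest share had the highest sum, and in Het the library with the largest share had the lowest. With Rn45s as a covariate, which was chosen after this was seen, edgeR called Dut and Rrm2 lower with all 8 libraries, where it called 2.05% of all genes lower. The same covariate left none of the 45 genes called without KO replicate 8, where 1.12% of all genes were called lower (17 of the 45 lower and none higher at an unadjusted p under 0.05), and their median log2 fold change was −0.52.

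**Figure D4:**
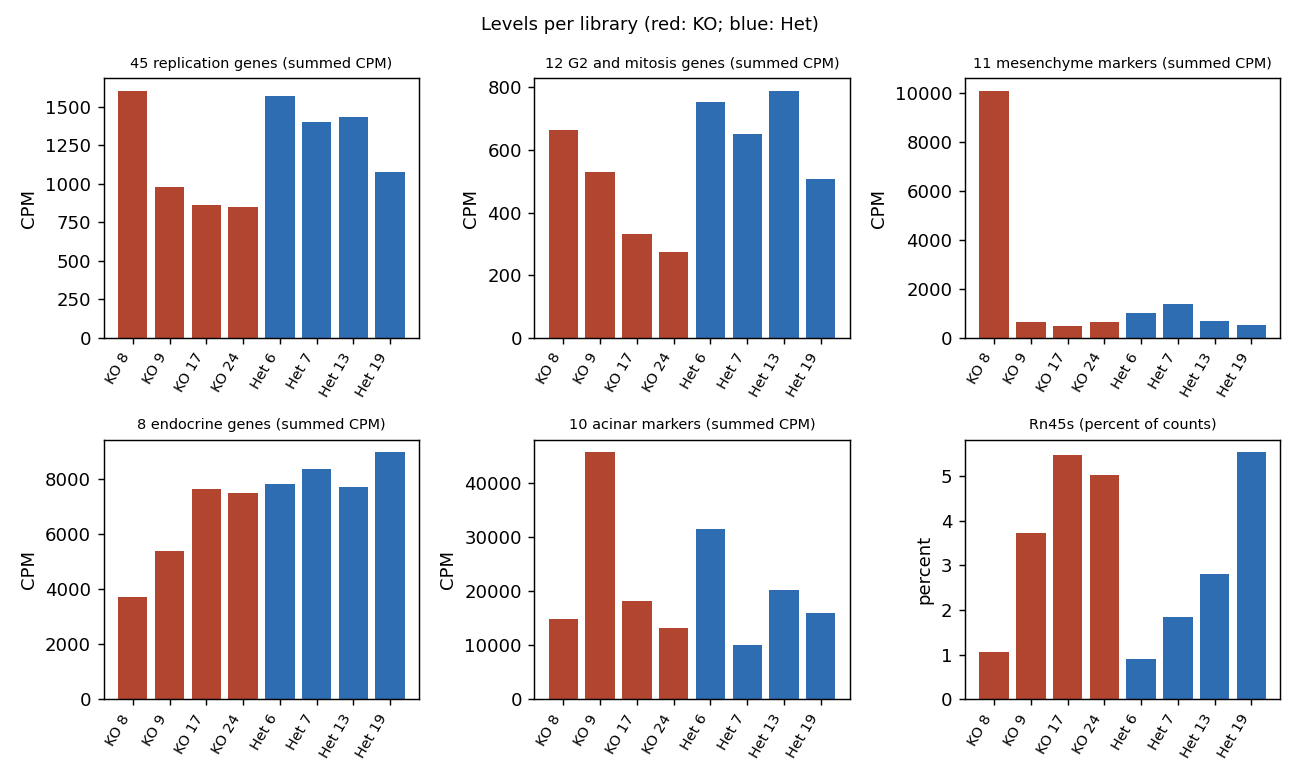
Summed CPM per library of the 45 replication genes, 12 G2 and mitosis genes, 11 mesenchyme markers, 8 endocrine genes and 10 acinar markers, and the percent of counts in Rn45s (red bars: KO; blue bars: Het). The replication sum is 1604 CPM in KO replicate 8, which also has the highest mesenchyme sum, and 851.8 to 981.1 CPM in the other KO libraries, below all 4 Het libraries.

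Of 60 further replication genes listed beside the 45, 59 had a row and all 59 were tested. With all 8 libraries 48 were negative, and Orc6 was called lower, where 46.6% of all genes tested were negative and 0.68% called lower. Orc6, a subunit of the origin recognition complex that marks where the helicase is loaded, stood at 33.7, 17.9, 22.9 and 21.9 CPM in KO and at 86.7, 64.7, 79.8 and 49.5 CPM in Het. All KO libraries, replicate 8 included, lay below all Het libraries (log2 fold change −1.54, SE 0.24, edgeR adjusted p = 0.0195; adjusted p = 2.46e-05 in the authors' deposited table). That call was lost when any single library other than KO replicate 8 or Het replicate 19 was left out, and with the Y-linked covariate. Without KO replicate 8, Orc6 (−1.76, SE 0.23, adjusted p = 0.00219) and Hells fell, 50 of 59 were negative and 19 were lower at an unadjusted p under 0.05, none higher. Over all genes, 50.6% were negative, 8.21% were lower and 6.03% higher at that level, and 1.31% were called lower. Hells, a chromatin remodeller that acts with DNA methylation, stood at 24.7, 12.5, 10.3 and 10.1 CPM in KO and at 21.9, 32.5, 31.8 and 20.4 CPM in Het (−1.29, SE 0.26, adjusted p = 0.0264 without KO replicate 8, where replicate 8 lay within the Het range). In the fit without KO replicate 8, the call of Orc6 held with any further library left out, and that of Hells only without Het replicate 6 or Het replicate 19. The median log2 fold change of the 59 genes was −0.22 with all libraries and −0.40 without KO replicate 8.

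In the lists with no call, the genes with the smallest p without KO replicate 8 were Clspn, a checkpoint mediator at the fork (−1.39, SE 0.34, adjusted p = 0.0615), Dck, which salvages deoxycytidine (−1.18, SE 0.32, adjusted p = 0.0932), Pclaf, a PCNA-binding factor (−1.37, SE 0.44, adjusted p = 0.158), and Rbl1, the pocket protein p107 (−0.74, SE 0.27, adjusted p = 0.21). With all 8 libraries the polymerase and pocket protein lists had their smallest p in Dscc1 (adjusted p = 0.425) and E2f7 (0.57). The origin recognition complex held 6 genes, of which 1 passed and 3 were lower at an unadjusted p under 0.05 in both fits. Over all genes, 5.8% were lower at that level with all 8 libraries and 8.21% without KO replicate 8. The pocket proteins and further E2F and DP factors had the median nearest to 0 of these lists, −0.10 and −0.14.

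The 12 G2 and mitosis genes were all negative in both fits, with medians of −0.66 and −0.995. Of all genes tested, 46.6% were negative with all 8 libraries and 50.6% without KO replicate 8. None of the 12 passed edgeR's test with all 8 libraries (4 lower at an unadjusted p under 0.05), and 1, the mitotic cyclin gene Ccnb2, was called without KO replicate 8 (10 lower and none higher at that unadjusted level). Over all genes, 0.68% were called lower and 5.8% were lower at that unadjusted level with all 8 libraries. Without KO replicate 8, 1.31% of all genes were called lower and 8.21% were lower at the unadjusted level. Mki67, a marker of cycling cells, stood at 243, 252, 167 and 132 CPM in KO and at 275, 269, 359.9 and 234 CPM in Het, where KO replicates 8 and 9 overlapped with Het (log2 fold change −0.52, SE 0.22, adjusted p = 0.381; without KO replicate 8, −0.65, SE 0.21, adjusted p = 0.166). For Top2a, the topoisomerase that untangles chromosomes, the log2 difference was −0.60 (SE 0.37, adjusted p = 0.553) with all libraries and −0.99 (SE 0.30, adjusted p = 0.131) without KO replicate 8.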

How the data were processed

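Per the labels' protocols, pancreata of embryonic day 17 mice were dissociated, Neurog3-Cre+ Rosa Tomato+ cells were sorted, and 2.315 ng of RNA per sample was amplified with the NuGEN Ovation kit and sequenced as single-end reads of 100 bp. Strand is not kept, so reads of overlapping or antisense genes cannot be told apart, and copies made by amplification add to the reads. The authors deposited raw counts, 1 whole number for each gene symbol and library. Per the submitters' processing notes, TopHat2 2.1.0, Cufflinks 2.0.2, bcl2fastq 1.8.4, DESeq and build mm9 were used; which counter and annotation were used is not given in the sources used here. Per gene, the authors' deposited table holds, per the file headers, a mean signal per group, the ratio (fold change), its log2 and p-values with adjusted p-values.

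Groups came from the labels. Counts were analysed with edgeR 4.0.16 in R 4.3.3: filterByExpr (minimum count 10, total 15) left 14116 of 23284 genes, or 14307 without KO replicate 8; TMM scaling, a quasi-likelihood F test of KO against Het, two-sided, and Benjamini-Hochberg adjustment over all tested genes followed, with calls at an adjusted p under 0.05. Each SE given with an edgeR log2 fold change is its absolute value divided by the square root of the F statistic. It thus restates the test and is not a separate estimate. At the totals given, counting error is largest for genes of a few CPM. DESeq2 1.42.0, limma-voom 3.58.1 with quality weights, other scalings and filters, covariates and left-out libraries were alternatives. edgeR, DESeq2 and limma-voom were tested on simulated counts. These spread less between libraries than the data (common dispersion 0.181, or 0.123 without KO replicate 8) and held no outlying library. The simulation therefore cannot decide between the tools where their calls differ here. No 2 libraries held the same values, and no per-sample column was left unmatched. The 45 genes, the further lists, the marker lists and the alternatives were chosen with earlier results of these data known. Named were all 45 genes, called further replication genes (or the smallest p of a list), Neurod1, Mki67, Top2a and the 2 highest markers of the larger lists; Ccnb2, Cftr, Cldn5 and Sox4 were named after their values were seen. Symbols were matched exactly, except Pclaf, listed as 2810417H13Rik, and Ticrr had no row under its symbol. Promoters are RefSeq sequences, scanned for exact letters.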

Additional observations from a re-analysis of the deposited data

Results flagged for a closer look

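In 8 of the 90 groups of 4 libraries checked (45 genes in KO and in Het), 1 library lay far from the other 3; the gap to them exceeded the 95% critical value of Dixon's test. Chance gives about 1 group in 20. Of the 8, 5 were high values in KO replicate 8: Mcm4 at 92.7 CPM, Mcm6 at 90.3 CPM, Rrm1 at 112 CPM, Tk1 at 25.0 CPM and E2f1 at 42.5 CPM, each above every other library of either genotype. Mcm10 was high in KO replicate 9, at 8.22 CPM. In Het, Gins2 was high in replicate 6, at 23.9 CPM, and Dut was low in replicate 19, at 59.4 CPM.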

How the results depend on the processing

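The counts of called genes depended on the tool and on single libraries. With all 8 libraries, the number of the 45 genes called lower was 0 by edgeR, 3 by DESeq2, 6 by weighted limma-voom, 8 with the mesenchyme covariate and 2 with the Rn45s covariate (added after seeing the data), and 0 to 3 with each library left out, the 3 without KO replicate 8. Without KO replicate 8 it was 3 by edgeR, 1 with total counts, 16 by each of DESeq2 and limma-voom, 5 with no filter on low counts, 1 with the mesenchyme covariate, 0 with the Y-linked and 0 with the Rn45s covariate, and 0 to 11 with a further library left out (11 without Het replicate 19; 1, Uhrf1, without KO replicate 9). No setting called any of the 45 higher. Over all genes, the 96 lower and 48 higher calls became a total of 520 by DESeq2, 500 by limma-voom, 530 with the mesenchyme, 28 with the Y-linked and 576 with the Rn45s covariate, and 29 to 285 with each library left out; without KO replicate 8, 285 became 718, 711 and, with the Y-linked covariate, 132, and 76 to 416 with a further library left out. The share of calls that were lower was 66.7% by edgeR, 56.3% by DESeq2 and 50.3% with the Rn45s covariate, and with KO replicate 8 left out 66% by edgeR and 53.7% with total counts. Further replication genes called lower numbered 1 by edgeR, 2 by DESeq2, 4 by limma-voom, 6 with the mesenchyme and 0 with the Y-linked covariate, and 0 to 2 with each library left out; without KO replicate 8 they numbered 2, then 10, 7, 4 with no filter, 1 with the Rn45s covariate and 1 to 6 with a further library left out. The median log2 fold change of the 45 genes without KO replicate 8 was −0.74, and −0.52 with the Rn45s covariate. The causes were not tested. The sign of the log2 fold change differed from that of the edgeR fit for the following genes and settings. For all 8 libraries, with total counts it was 0.0043 for Mcm7, 0.059 for Pold1, 0.044 for Rfc1. With DESeq2 it was 0.0003 for Pold1. With limma-voom with quality weights it was −0.047 for Pola1, −0.45 for Pola2, −0.11 for Prim2, 0.027 for Rfc2, −0.54 for Tk1, −0.26 for Chaf1a, −0.65 for Ccne2, −0.070 for Cdk2. With no filter on low counts it was −0.019 for Ccne2. With the 2 CPM filter it was −0.0042 for Ccne2. With the mesenchyme covariate it was −0.33 for Pola2, 0.063 for Pold1, −0.34 for Tk1, −0.071 for Chaf1a, −0.060 for Ccne2, −0.077 for Cdk2. With the Y-linked covariate it was −0.25 for Pola2, 0.55 for Pold1, −0.036 for Tk1, −0.47 for Ccne2. With the Rn45s covariate it was 0.091 for Rfc1. With each library left out the ranges were −0.46 to 0.22 for Pola2, −0.075 to 0.78 for Prim2, −0.51 to 0.43 for Tk1, −0.22 to 0.50 for Chaf1a, −0.45 to 0.22 for Ccne2, −0.23 to 0.42 for Cdk2, −0.26 to 0.38 for Pold1, −0.21 to 0.051 for Rfc1, −0.98 to 0.14 for E2f1, −0.22 to 0.017 for Dnmt1, −0.12 to 0.029 for Mcm7. With KO replicate 8 left out, with total counts it was 0.019 for Pold1. With limma-voom with quality weights it was −0.090 for Pola1, 0.079 for Rfc2. With the Y-linked covariate it was −0.024 for Pola1, 0.46 for Pold1, 0.034 for Chaf1a. With the Rn45s covariate it was 0.027 for Rfc1, 0.038 for E2f2, 0.079 for Cdk2. With a further library left out the ranges were −0.047 to 0.12 for Pola1, −0.37 to 0.27 for Prim2, −0.30 to 0.34 for Pold1, −0.54 to 0.028 for Rfc2, −0.95 to 0.23 for Ccne2, −0.13 to 0.018 for Mcm7, −0.39 to 0.057 for Chaf1a. No paired analysis was possible because the replicate numbers of KO and Het libraries are not shared. Mcm10, Gins1 and Ccne1, of the lowest CPM, rest on the fewest counts.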
